A study of Mus musculus with 3 samples.

Results

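Transcripts of 7 small nucleolar RNA (snoRNA) host genes, Gas5, Zfas1, Snhg1, Snhg3, Snhg6, Snhg8 and Snhg12, were followed in single cells of mouse brain. They were taken by symbol from the gene list of the deposited matrices, where each symbol stood for 1 of 32285 genes. The members were chosen by their levels in these libraries and cell classes and by their relation to the share of ribosomal protein transcripts, so those values are given as descriptions. Flow cytometry had selected cells with intermediate CD45 and with CD11b, as microglia (macrophages resident in brain tissue) are, and transcript 3′ ends were counted in droplets by unique molecular identifiers (UMIs).

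The groups were NMOSD + APOE130-149, NMOSD + control peptide and sham + PBS, each 1 library from the pooled brains of 4 mice on day 4. NMOSD stands for neuromyelitis optica spectrum disorder, in which antibodies attack astrocytes, and APOE130-149 is the peptide under study. All mice of all groups carried the Apoe knockout, so no library shows cells with normal Apoe. The NMOSD groups differ from sham in both induction and peptide, which cannot be told apart from each other. With 1 library per group there was no replicate, no test and no p-value. Intervals are exact 95% intervals and cover counting error only, not differences between mice.

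Host genes of this kind are transcribed as long RNAs whose introns are cut out and trimmed to snoRNAs, which guide the chemical modification of ribosomal and other RNAs. The spliced host RNA left behind codes for no known conserved protein in most cases, enters the cytoplasm and is often removed by nonsense-mediated decay, which needs translation. Several host RNAs, among them Gas5, begin with a run of pyrimidines like the messenger RNAs of ribosomal proteins and translation factors (5′TOP transcripts), a feature through which growth signals control translation.

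In the GENCODE M21 annotation (GRCm38, the assembly of the mm10 build named in the processing notes), Gas5 (ENSMUSG00000053332), named for its accumulation in growth-arrested cells, lies on chromosome 1 at 161034422 to 161038539 with 10 annotated snoRNA genes inside it on its own strand. Zfas1 (ENSMUSG00000074578, chromosome 2, 167062934 to 167065862) holds 3, among them Snord12, and overlaps Znfx1 on the opposite strand. Snhg1 (ENSMUSG00000108414, chromosome 19, 8723475 to 8726443) holds 8, among them Snord22. Snhg3 (ENSMUSG00000085241, chromosome 4, 132348014 to 132353686) holds Snora73a and Snora73b, needed for processing of ribosomal RNA, and overlaps Rcc1 on the same strand. Snhg6 (ENSMUSG00000098234, chromosome 1, 9941959 to 9944118) holds Snord87 and overlaps Mcmdc2 on the opposite strand. Snhg8 (ENSMUSG00000104960, chromosome 3, 123507552 to 123508404) holds Snora24. Snhg12 (ENSMUSG00000086290, chromosome 4, 132308623 to 132311024) holds 5, among them Snora61 and Snord99. Overlapping annotation entries of Snord80 in Gas5 and of Snora16a in Snhg12 are counted separately. Whether counting used strand or intronic reads is not given in the sources used here, so UMIs of Gas5 (across Zbtb37), Zfas1, Snhg3 and Snhg6 may include reads of the overlapping gene.

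Because transcripts that begin with pyrimidines were the ones to compare the members with, the RefSeq starts (GRCm38.p6) of the 6 members listed in the promoter table are shown, from 40 bases before the start to the base at position 20. Capitals mark runs of 5 or more pyrimidines (C or T) that touch the 10 bases on either side of the start, and TATA beginning 20 to 40 bases before it, both read on the transcribed strand. In every line the start is the base that follows the first 40 letters.
Gas5 at chr1:161034561-161034620 (plus strand): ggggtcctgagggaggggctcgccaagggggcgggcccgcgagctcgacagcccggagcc
Gas5 at chr1:161035126-161035185 (plus strand): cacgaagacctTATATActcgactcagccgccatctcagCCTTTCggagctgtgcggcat
Zfas1 at chr2:167062894-167062953 (plus strand): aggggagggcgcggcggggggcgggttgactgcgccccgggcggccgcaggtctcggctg
Snhg1 at chr19:8723447-8723506 (plus strand): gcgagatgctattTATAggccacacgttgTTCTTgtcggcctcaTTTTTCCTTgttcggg
Snhg3 at chr4:132353667-132353726 (minus strand): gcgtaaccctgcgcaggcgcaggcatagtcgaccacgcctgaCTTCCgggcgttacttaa
Snhg8 at chr3:123508317-123508376 (minus strand): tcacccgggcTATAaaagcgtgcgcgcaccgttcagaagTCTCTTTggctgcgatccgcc
Snhg12 at chr4:132308638-132308697 (plus strand): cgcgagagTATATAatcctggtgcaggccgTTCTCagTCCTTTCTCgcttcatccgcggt
A pyrimidine run was present at 5 of the 7 starts, against 44.9% of all 32851 promoters in the table and 67.9% of 78 promoters of cytosolic ribosomal protein genes. TATA in that window was present at 4 of the 7, the downstream Gas5 start, Snhg1, Snhg8 and Snhg12, against 5.81% of all promoters and 8.97% of those of ribosomal protein genes. Neither was present at the upstream Gas5 start or at Zfas1. These are matches of letters, not sites of binding, and the starts used in these cells were not measured by 3′ counts.

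Cells under 500 genes or over 10% mitochondrial UMIs were left out. This kept 2025 with APOE130-149, 5011 with the control peptide and 4231 in sham. Cells were put into a class by how many of its 10 markers had a UMI. In the same order of libraries, 423, 924 and 584 of the kept cells fell in no class. A further 52, 106 and 41 fell in classes not followed here. Gated microglia numbered 1091, 3159 and 3224 cells in that order, and of 4 further microglial markers not used in the gate, 4, 2 and 3 were highest in them. Apoe UMIs from outside any deleted part of the gene cannot check the knockout, and its level in microglia was 98.3 CPM (UMIs per 1000000 UMIs of the class) with APOE130-149, 80.9 CPM with the control peptide and 72.4 CPM in sham. Libraries shared at most 9 cell barcodes. RNA of choroid plexus was higher in the NMOSD microglia, with Ttr at 65.4 CPM with APOE130-149 and 91.6 CPM with the control peptide, against 0.955 CPM in sham.

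The first question was whether microglia after NMOSD induction, with either peptide, carry more or less host RNA than microglia of sham mice. Summed over the 7 members, the level was 687 CPM with APOE130-149, 746 CPM with the control peptide and 737 CPM in sham. The sum with APOE130-149 was 0.931 times that of sham (0.905 to 0.958), and the sum with the control peptide was 1.01 times that of sham (0.991 to 1.03). With cells thinned to 2000 UMIs, and shallower cells left out, the log2 ratio with APOE130-149 turned from -0.10 to 0.02. That left out 117 of 1091 microglia with APOE130-149, 181 of 3159 with the control peptide and 702 of 3224 in sham. The direction of that small difference thus changes with this setting, and the part of the cells left out was not tested. Single members went in different directions.

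**Figure D1:**
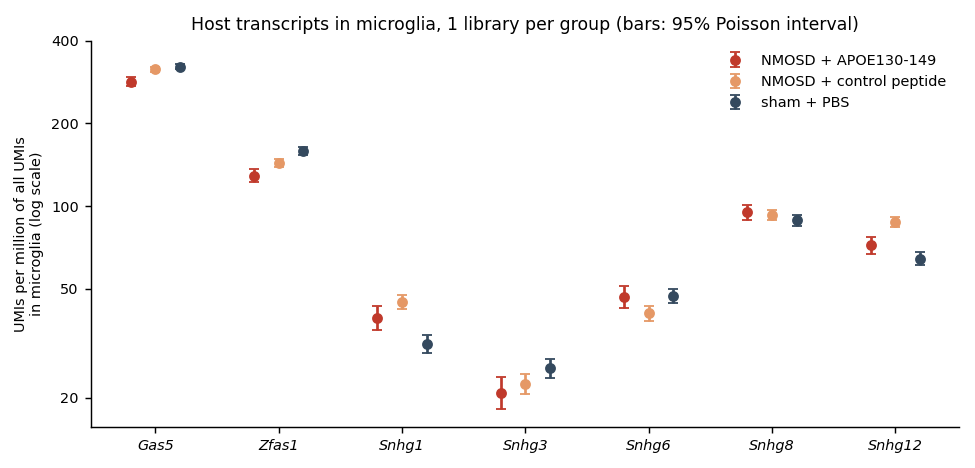
Levels of the 7 host transcripts in gated microglia, in CPM on a log axis, for the NMOSD + APOE130-149, NMOSD + control peptide and sham + PBS libraries, with 95% Poisson intervals. Snhg1 and Snhg12 are highest with the control peptide (44.5 and 87.8 CPM), and Zfas1 is lowest with APOE130-149 (129 CPM).

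Snhg1 had 39.1 CPM with APOE130-149 and 44.5 CPM with the control peptide, against 31.5 CPM in sham. Both NMOSD libraries were above sham, by 1.24-fold (1.09 to 1.41) with APOE130-149 and by 1.42-fold (1.29 to 1.56) with the control peptide. Snhg12, host of Snora16a, Snora44, Snora61 and Snord99, had 71.9 CPM with APOE130-149 and 87.8 CPM with the control peptide, against 64.3 CPM in sham. It stood 1.12-fold (1.02 to 1.22) and 1.36-fold (1.28 to 1.46) above sham in these libraries.

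Zfas1 had 129 CPM with APOE130-149 and 143 CPM with the control peptide, against 158 CPM in sham. It was lower than sham in both, at 0.816 times (0.765 to 0.869) and 0.905 times (0.864 to 0.947) the sham level. Snhg3 had 20.9 CPM with APOE130-149 and 22.5 CPM with the control peptide, against 25.7 CPM in sham, ratios of 0.814 (0.692 to 0.954) and 0.878 (0.781 to 0.986). Zfas1 and Snhg3 thus had intervals below 1 in both NMOSD libraries, and Snhg1 and Snhg12 above 1 in both. Both ratios of a member share the same sham library. How many of all genes had such intervals was not counted, so this is not read as particular to the members.

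Gas5 had 284 CPM with APOE130-149 and 314 CPM with the control peptide, against 322 CPM in sham. With APOE130-149 it was 0.883 times the sham level (0.845 to 0.922), and with the control peptide 0.977 times (0.947 to 1.01), an interval that held 1. Thinning to 2000 UMIs turned the log2 ratio of Gas5 with APOE130-149 over sham to 0.06, from -0.18. Snhg6, which encloses Snord87, had 46.7 CPM with APOE130-149 and 40.7 CPM with the control peptide, against 47.2 CPM in sham, so the control peptide library was the low one. Snhg8, which encloses Snora24, had 95.01 CPM with APOE130-149 and 92.99 CPM with the control peptide, against 88.7 CPM in sham, with both intervals holding 1.

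None of the 7 members was 1.5-fold or more from sham in either direction in either NMOSD library, as scaled to CPM. With the control peptide Snhg1 passed 1.5-fold by TMM (log2 ratio 0.59) and by median of ratios (0.60), and Snhg12 passed it with cells thinned to 2000 UMIs (0.59). Of all genes at 10 CPM or more in the higher library, 1.55% were at least 1.5-fold higher and 1.37% at least 1.5-fold lower with APOE130-149, and 1.38% higher and 1.01% lower with the control peptide, so a count of 0 of 7 in CPM lies near the background. The median log2 ratio of the members was -0.02 with APOE130-149 and -0.03 with the control peptide, beside -0.06 and -0.08 for all genes. Median-of-ratios scaling raised the log2 ratio of the sum with the control peptide over sham to 0.12, against 0.02 in CPM. Under it Snhg12 stood at 0.55, Zfas1 at -0.04 and Snhg3 at -0.08, and Gas5 turned to 0.07.

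The second question, how the peptide-treated groups differ, compares libraries that share induction. With APOE130-149 the members' sum was 0.920 times that with the control peptide (0.895 to 0.946). Snhg12 differed most among the members, at 0.819 times its level with the control peptide (0.752 to 0.891). Snhg6 was the member whose interval lay above 1, 1.15-fold higher with APOE130-149 (1.03 to 1.28). Again 0 of 7 members passed 1.5-fold, beside 0.597% of all genes higher and 0.322% lower, and the members' median log2 ratio was -0.15 beside 0.01 for all genes.

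Of 7 further noncoding snoRNA hosts measured, Snhg9 alone passed 1.5-fold, with 23.7 CPM with APOE130-149, 13.02 CPM with the control peptide and 15.6 CPM in sham. Of 15 genes of snoRNA-protein particles and 17 nonsense-mediated decay factors, none passed 1.5-fold in any of the 3 comparisons. Of 19 genes of ribosome biogenesis and RNA polymerase I, Gnl3, which encodes the nucleolar protein nucleostemin, alone passed it, at a log2 ratio of 0.63 with the control peptide over sham. The 17 genes of the 5′TOP list, which holds translation factors such as Eef1a1, had none past 1.5-fold and median log2 ratios of -0.07 with APOE130-149 over sham, 0.04 with the control peptide over sham and -0.14 between the peptides. Of 83 ribosomal protein genes 2 passed 1.5-fold, both lower with the control peptide than in sham, and their medians were -0.11, 0.03 and -0.14 in the same comparisons, while the share of UMIs in these genes was 11.0% with APOE130-149, 11.8% with the control peptide and 12.2% in sham. Immediate early genes, which cells switch on within minutes of a stimulus or of tissue dissociation, had the highest medians of the lists, 2.24 with APOE130-149 over sham and 2.12 with the control peptide over sham: 16 of 17 were at least 1.5-fold higher with APOE130-149 than in sham, and 16 of 16 with the control peptide. Their part in the member differences was not tested.

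The third comparison set border-associated macrophages, neutrophils and monocytes against microglia within each library. The marker gate alone left the neutrophil class mixed: P2ry12, a microglial receptor, stood at 2197 CPM with APOE130-149, 1888 CPM with the control peptide and 1912 CPM in sham, not far below the 2859, 2573 and 2673 CPM of microglia in the same libraries. The values that follow are therefore of cells in which the 10 microglial markers made up less than 1.16% of UMIs with APOE130-149, 1.10% with the control peptide and 1.03% in sham, limits set from the median share in microglia of each library. This left 25, 25 and 20 border-associated macrophages, 60, 109 and 48 neutrophils, and 35, 65 and 38 monocytes with APOE130-149, with the control peptide and in sham. P2ry12 was then at 392.5, 517 and 273 CPM in neutrophils, and S100a9, which encodes a subunit of the neutrophil protein calprotectin, at 114727, 95874 and 151173 CPM. Of 4 further markers per class not used in the gate, 3 were highest in border-associated macrophages and 4 in neutrophils in each library. For monocytes 3, 3 and 2 of 4 were highest in their own class.

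Neutrophils carried the least host RNA. The members' sum in neutrophils was 314 CPM with APOE130-149, 371 CPM with the control peptide and 179 CPM in sham, against 687, 746 and 737 CPM in microglia of these libraries. The ratio of neutrophils to microglia was 0.457 (0.407 to 0.513) with APOE130-149, 0.497 (0.460 to 0.536) with the control peptide and 0.243 (0.198 to 0.295) in sham. Every library had neutrophils below microglia, and sham neutrophils were the lowest of the 12 sums.

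**Figure D2:**
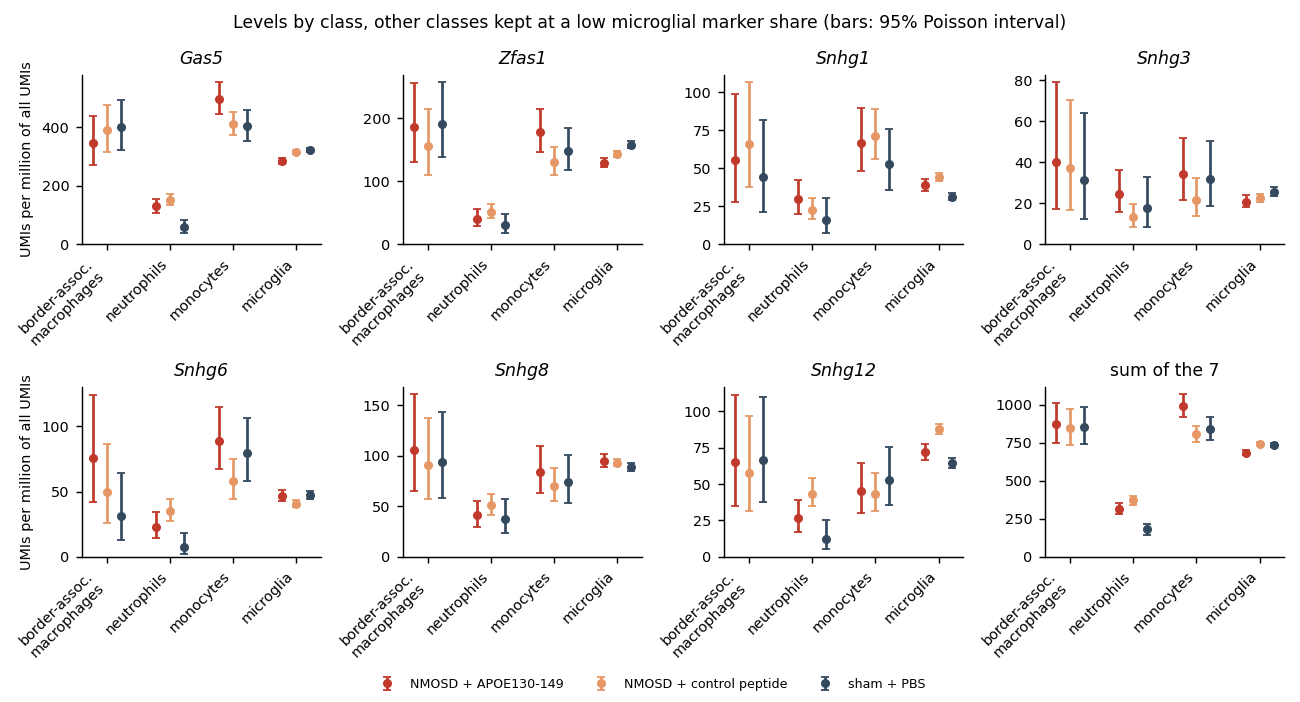
Levels of each member and of their sum, in CPM, in border-associated macrophages, neutrophils and monocytes with a low microglial marker share and in microglia, with 95% Poisson intervals and 1 point per library. Neutrophil points lie lowest for the sum (179 to 371 CPM), and Snhg12 spans 12.4 to 53.1 CPM in neutrophils and monocytes, below its 64.3 to 87.8 CPM in microglia.

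Gas5 in neutrophils was at 129 CPM with APOE130-149, 153 CPM with the control peptide and 58.5 CPM in sham, from 33 to 289 UMIs, against 284, 314 and 322 CPM in microglia. Zfas1 was at 40.8, 52.0 and 30.2 CPM in neutrophils of the same libraries, against 129, 143 and 158 CPM in microglia. Snhg8 was at 40.8, 50.9 and 37.3 CPM in neutrophils, against 95.01, 92.99 and 88.7 CPM in microglia. Snhg12 was at 26.5, 43.5 and 12.4 CPM in neutrophils, against 71.9, 87.8 and 64.3 CPM in microglia. For these 4 members neutrophils were the lower class in every library, with all intervals of the ratio below 1.

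Those 4 of 7 members were at least 1.5-fold lower in neutrophils in all 3 libraries, while 36.9% of all genes were lower and 10.5% higher by that rule, and the members' median log2 ratio was -1.13 beside -0.69 for all genes. S100a8 and S100a9 together took up a large part of neutrophil UMIs, which lowers the CPM of every other gene, and the median log2 ratio of the sum over the libraries was -1.13 with them in the total and -0.78 with them left out. Snhg1, at 29.6, 22.8 and 16.0 CPM in neutrophils, was below microglia with an interval that held 1 with APOE130-149 (0.5002 to 1.10). Snhg3 stood at 24.5, 13.3 and 17.7 CPM in neutrophils, and its ratio to microglia was above 1 with APOE130-149 (1.17, 0.734 to 1.79). Snhg6 rested on 22, 66 and 4 UMIs in neutrophils, at 22.4, 35.0 and 7.10 CPM.

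The median share of ribosomal protein genes per neutrophil was 3.87% with APOE130-149, 5.03% with the control peptide and 3.59% in sham, against 9.86%, 11.1% and 12.2% in microglia. As a share of the pooled UMIs the gap was smaller, at 7.39%, 10.3% and 5.32%, against 11.0%, 11.8% and 12.2% in microglia. Of 83 ribosomal protein genes, 2 were at least 1.5-fold lower in neutrophils in all 3 libraries, and their median log2 ratio was -0.58, beside -0.69 for all genes. Both NMOSD libraries also had more host RNA in neutrophils than sham did, with sums 1.75-fold (1.40 to 2.22) and 2.07-fold (1.68 to 2.57) above it. How many of all genes were likewise higher than in sham was not counted. The pooled ribosomal protein share of these neutrophils ran in the same order as the sums, and its part was not tested. P2ry12 in these neutrophils, at 392.5 CPM with APOE130-149, 517 CPM with the control peptide and 273 CPM in sham, ran in that order too. Its part in the difference between the sums was not tested. S100a8 stood at 98236, 80578 and 138685 CPM in these neutrophils, and S100a9 at 114727, 95874 and 151173 CPM. Both were highest in sham, where they lower the CPM of every other gene most, and their part was not tested.

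Monocytes and border-associated macrophages were at or above microglia. The sum in monocytes was 993 CPM with APOE130-149, 807 CPM with the control peptide and 844 CPM in sham, ratios to microglia of 1.45 (1.33 to 1.57), 1.08 (1.01 to 1.16) and 1.15 (1.04 to 1.255). Snhg1 was at 66.7, 71.3 and 53.1 CPM in monocytes, against 39.1, 44.5 and 31.5 CPM in microglia. It was the 1 of 7 members at least 1.5-fold higher in monocytes in all 3 libraries, beside 15.2% of all genes higher and 25.5% lower.

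Gas5 was higher in monocytes in each library too, at 497, 412 and 404 CPM with APOE130-149, with the control peptide and in sham, ratios to microglia of 1.75 (1.55 to 1.96), 1.31 (1.19 to 1.44) and 1.26 (1.10 to 1.43). Snhg6 was at 88.5, 58.2 and 79.7 CPM in monocytes, against 46.7, 40.7 and 47.2 CPM in microglia, and all 3 intervals of its ratio lay above 1. Snhg12 went the other way, at 45.02, 43.2 and 53.1 CPM in monocytes, ratios of 0.626 (0.416 to 0.907), 0.492 (0.359 to 0.658) and 0.825 (0.555 to 1.18). Snhg8 was also below microglia in each library, at 83.8, 70.4 and 74.4 CPM, with an interval that left out 1 only for the control peptide (0.593 to 0.953).

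Monocytes were also the class with the highest ribosomal protein share, with medians of 22.2%, 19.8% and 21.7%, and 69 of 83 ribosomal protein genes and 12 of 17 5′TOP genes were at least 1.5-fold higher in them than in microglia in all 3 libraries. The members' median log2 ratio to microglia was 0.31, that of the 5′TOP genes 0.92 and that of all genes -0.28. The members thus differed less between monocytes and microglia than the 5′TOP genes did, a comparison of medians with no test.

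Border-associated macrophages, which line the meninges, the perivascular space and the choroid plexus, had sums of 874 CPM with APOE130-149, 847 CPM with the control peptide and 858 CPM in sham, ratios to microglia of 1.27 (1.09 to 1.48), 1.14 (0.985 to 1.30) and 1.16 (1.005 to 1.34). Gas5 was at 347, 391 and 400 CPM in them, above microglia in each library, though the interval left out 1 only with the control peptide (1.004 to 1.52). None of the 7 passed 1.5-fold in all 3 libraries, beside 6.68% of all genes higher and 9.96% lower, and single members other than Gas5 rested on 7 to 43 UMIs. S100a8 stood at 11680 CPM in these cells with the control peptide, against 141 CPM with APOE130-149 and 62.2 CPM in sham, and its part was not tested.

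With the marker gate alone, none of the 7 passed 1.5-fold in all 3 libraries in any class, while 2.45% of all genes did in border-associated macrophages, 3.11% in neutrophils and 25.3% in monocytes. The neutrophil sums were then 701, 676 and 626 CPM in the same order of libraries, close to microglia. The low neutrophil level given above is therefore that of neutrophils with a low microglial marker share, not of all cells the marker gate took.

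The likeness of other genes was taken over the 12 sums of 4 classes and 3 libraries, which share libraries, totals and, with the gate alone, microglial RNA, so it is a description. With the marker gate alone, the genes most like the members' sum were 2410006H16Rik (r = 0.955), Svbp (0.928), Abhd17a (0.912), Fam174a (0.908) and Ptpn18 (0.901), among 3287 genes. The members' sum and the sum of ribosomal protein genes had r = 0.807. Among members, r with the ribosomal protein sum was 0.904 for Gas5, 0.728 for Snhg6 and 0.672 for Snhg1, but -0.292 for Snhg8 and -0.429 for Snhg12. In cells with a low microglial share all 7 were positive, from 0.594 for Snhg3 to 0.934 for Gas5, and the sums had r = 0.909. The median r of all genes with the members' sum was then 0.472, against -0.099 with the marker gate alone, and the closest genes included Ly6e, Npc2, Eef1d and Cndp2.

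The last comparison asked how the members relate to the ribosomal protein share within 1 class. Microglia of each library were ranked by the share of their UMIs in 86 cytosolic ribosomal protein genes and cut into 5 bins of equal size. Members were counted per 1000000 UMIs not of ribosomal protein genes, so that the ranking genes did not enter the total. From the lowest to the highest bin the sum with APOE130-149 was 488, 641, 711, 879 and 1041. With the control peptide it was 569, 704, 834, 952 and 1113, and in sham it was 523, 649, 876, 1092 and 1396. Each step up in ribosomal protein share had more host RNA in every library. The highest bin held 2.13-fold (1.96 to 2.33), 1.96-fold (1.86 to 2.06) and 2.67-fold (2.53 to 2.82) the level of the lowest with APOE130-149, with the control peptide and in sham.

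**Figure D3:**
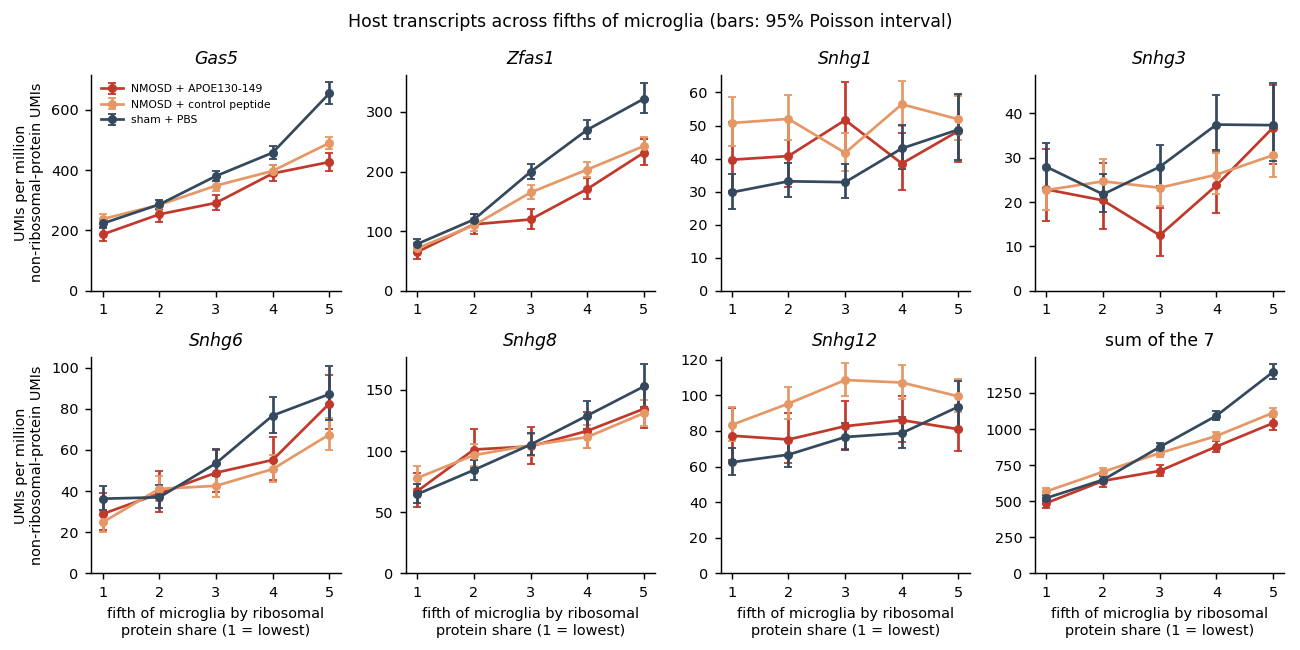
Levels of each member and of their sum in 5 bins of microglia ranked by ribosomal protein share (1 is the lowest), in UMIs per 1000000 UMIs that are not of ribosomal protein genes, with 95% Poisson intervals and 1 line per library. Zfas1 climbs most, to 232, 243 and 322 in the highest bin with APOE130-149, with the control peptide and in sham, while the highest over lowest ratios of Snhg1 and Snhg12 are 1.02 to 1.22 in the NMOSD libraries.

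Zfas1 had the steepest relation. It stood at 65.2, 111, 120, 171 and 232 UMIs per 1000000 with APOE130-149 from the lowest to the highest bin, at 71.3, 110, 165, 203 and 243 with the control peptide, and at 78.5, 119, 200, 270 and 322 in sham. Its highest over lowest ratios were 3.56 (2.85 to 4.48), 3.40 (2.97 to 3.90) and 4.10 (3.59 to 4.70) in these libraries.

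Snhg6 had ratios of 2.85 (2.03 to 4.10) with APOE130-149, 2.72 (2.15 to 3.46) with the control peptide and 2.40 (1.92 to 2.995) in sham. Gas5 had ratios of 2.28 (1.99 to 2.63), 2.06 (1.91 to 2.23) and 2.93 (2.70 to 3.19) in the same order. Snhg8 had ratios of 2.00 (1.58 to 2.55), 1.68 (1.46 to 1.94) and 2.36 (2.00 to 2.79). These 4 were at least 1.5-fold higher in the highest bin in all 3 libraries, as were 5.74% of all genes, and 8.35% were lower by that rule.

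Snhg3 had ratios of 1.61 (1.05 to 2.50) with APOE130-149, 1.35 (1.02 to 1.78) with the control peptide and 1.34 (0.988 to 1.80) in sham. Snhg1 had 1.22 (0.870 to 1.72), 1.02 (0.841 to 1.24) and 1.64 (1.245 to 2.15), and Snhg12 had 1.05 (0.817 to 1.35), 1.19 (1.03 to 1.38) and 1.4998 (1.24 to 1.81). The intervals of Snhg1 held 1 in both NMOSD libraries and lay above 1 in sham, and those of Snhg12 held 1 with APOE130-149 and lay above 1 with the control peptide and in sham. Whether the slopes differ between libraries could not be tested with 1 library per group.

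All 7 members had a ratio above 1 in all 3 libraries, where 21.5% of all genes did. Of 17 5′TOP genes, 16 were at least 1.5-fold higher in the highest bin, with a median log2 ratio of 1.21, beside 1.001 for the members and -0.22 for all genes. Npm1, the nucleolar chaperone of ribosome assembly, led that list at 1.51. Other noncoding hosts had 1 of 7 past 1.5-fold, Epb41l4aos at 1.14 on the log2 scale, and a median of 0.22. Protein-coding hosts outside the ribosome had 1 of 11 past 1.5-fold and a median of -0.07, and genes of ribosome biogenesis and RNA polymerase I had 1 of 19, Npm1, and a median of -0.11. Proteins of snoRNA particles had 2 of 15 and a median of 0.22, led by Nhp2, a protein of box H/ACA particles, at 1.31. Most measured genes of these other lists thus did not pass 1.5-fold in the same direction in all 3 libraries.

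Other measures moved along the same ranking. The nuclear RNAs Malat1, Neat1 and Kcnq1ot1 together were lower in the highest bin, at 1.24% of UMIs with APOE130-149, 1.45% with the control peptide and 0.995% in sham, against 3.25%, 3.38% and 3.43% in the lowest. Immediate early genes held 0.897%, 0.608% and 0.1498% of UMIs in the highest bin, against 1.503%, 1.14% and 0.301% in the lowest. Mitochondrial genes held 2.44%, 2.96% and 2.05% in the highest bin, against 1.97%, 2.02% and 1.78% in the lowest. The part of these measures in the result was not tested. In sham the highest bin also held shallow cells, with a median of 1534 UMIs, against 6814 in the lowest, while medians were 9023.5 against 7393 with APOE130-149 and 7528 against 6134 with the control peptide. Ranked by UMIs alone, the deepest over the shallowest bin had a ratio of the sum of 1.04 (0.927 to 1.16) with APOE130-149, 1.05 (0.988 to 1.11) with the control peptide and 0.715 (0.665 to 0.771) in sham. With every cell thinned to 2000 UMIs and shallower cells left out, the highest over lowest ratio of the sum was 1.99 with APOE130-149, 2.05 with the control peptide and 2.45 in sham.

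Over single cells thinned in this way, Spearman's rank correlation between ribosomal protein share and the members' sum per non-ribosomal UMI was 0.381 in 974 microglia with APOE130-149, 0.374 in 2978 with the control peptide and 0.427 in 2522 in sham. Cells of 1 library share its preparation, and thinning does not remove free RNA. The ribosomal protein share also sets the non-ribosomal total that member counts are divided by. Cells with the same nonzero member count are thus ordered by that share, which raises these correlations by an amount that was not measured. By member, the correlation was 0.284, 0.288 and 0.297 for Gas5 and 0.199, 0.219 and 0.276 for Zfas1, in the same order of libraries. It was between 0.0413 and 0.109 for Snhg6 and Snhg8 and between -0.0034 and 0.0435 for Snhg1, Snhg3 and Snhg12, too weak in sparse counts to be read. The correlation was positive in the other classes of the marker gate as well, from 0.227 in 164 border-associated macrophages with the control peptide to 0.647 in 138 neutrophils in sham. That last class mixes cells of unlike content. All 272 gated sham neutrophils had a median ribosomal protein share of 14.8% and a members' sum of 626 CPM. Those with a low microglial share had 3.59% and 179 CPM. Of the 272, 134 had under 2000 UMIs and did not enter the correlation.

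**Figure D4:**
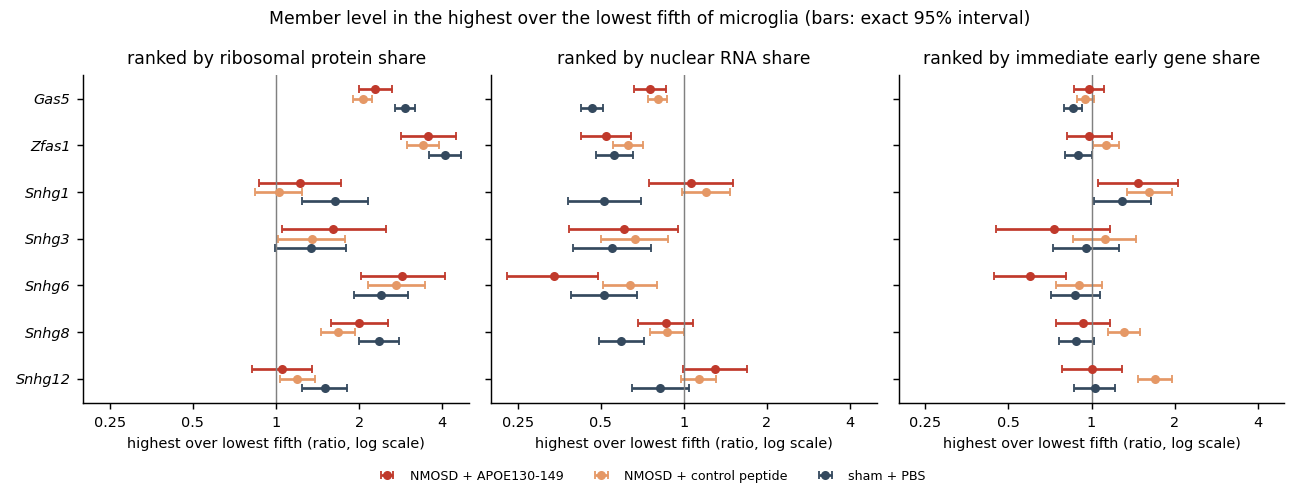
Ratio of each member's level in the highest over the lowest bin of microglia, on a log axis with exact 95% intervals, when cells are ranked by ribosomal protein share, by nuclear RNA share or by immediate early gene share. Ratios of Zfas1 lie at 3.40 or above in the first ranking and at 0.628 or below in the second, and the intervals of Snhg1 lie above 1 in the third in all 3 libraries.

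Ranked instead by the share of nuclear RNAs, microglia with more nuclear RNA held less host RNA in sum, though not for every member. The sum in the highest over the lowest bin was 0.733 (0.674 to 0.797) with APOE130-149, 0.816 (0.776 to 0.858) with the control peptide and 0.526 (0.494 to 0.561) in sham. Snhg6 had ratios of 0.339 (0.230 to 0.490), 0.639 (0.509 to 0.799) and 0.514 (0.391 to 0.679), and Zfas1 of 0.523, 0.628 and 0.560. Snhg12 had ratios of 1.30 (0.996 to 1.69), 1.13 (0.980 to 1.31) and 0.820 (0.649 to 1.04), all with intervals that held 1. In sham the lowest bin of this ranking again held shallow cells, with a median of 1386 UMIs against 7136.5 in the highest, and the part of depth in the sham ratios was not tested.

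Ranked by immediate early genes, the sum was nearly level, with ratios of 0.952 (0.880 to 1.03) with APOE130-149, 1.13 (1.08 to 1.18) with the control peptide and 0.905 (0.860 to 0.951) in sham. Snhg1 was the member whose interval lay above 1 in each library, at 1.47 (1.05 to 2.06), 1.62 (1.34 to 1.96) and 1.29 (1.02 to 1.64). Snhg12 had 1.70 (1.48 to 1.96) with the control peptide but 1.003 (0.782 to 1.28) with APOE130-149 and 1.03 (0.865 to 1.22) in sham. The interval of Snhg12 thus held 1 in 2 of the 3 libraries.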

How the data were processed

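Deposited values were UMI counts per gene and cell barcode, made with cellranger 7.0.1 per the file headers; the submitters' processing notes name Cell Ranger 5.0.1, Seurat 4.3.0 and mm10. Strand and intron settings are not named there. The deposited matrices held 2175 barcodes and 32060750 UMIs with APOE130-149, 5306 and 61469677 with the control peptide, and 4674 and 32712199 in sham. The members and lists were chosen with earlier results of these data known.

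Here, cells were filtered and gated (at least 4 of 10 markers of a class), UMIs were summed per class, and exact Poisson and Clopper-Pearson 95% intervals were computed with Python 3.11.15, numpy 2.4.6, scipy 1.17.1 and pandas 2.3.3, and figures with matplotlib 3.10.9. Fold calls, intervals of ratios, TMM, median of ratios and the ratio between bins were tested on simulated counts. The gates were not. A gene counted as past 1.5-fold at 10 CPM or more in the higher sum, between classes or bins in all 3 libraries. No doublet caller was run; leaving out cells above 2 times the median UMIs of their class was an alternative. Named genes were the members, at most the highest and lowest gene of each list, the 5 genes at 50 CPM or more most correlated with the members' sum in log2(CPM + 1), and P2ry12, S100a8 and S100a9. Apoe, Ttr and the nuclear RNAs were named outside this rule. One gene that the rule names is not reported here.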

Additional observations from a re-analysis of the deposited data

Results flagged for a closer look

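Several members stood on opposite sides of 1 in different cell classes under the same comparison, with counting intervals that left out 1 in both classes. Only the members were searched in this way. How many of all genes do the same was not counted, so this is not read as particular to the members. Every class is 1 library per group, so no difference between classes was tested, and the values are log2 ratios.

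With APOE130-149 over the control peptide, by the marker gate alone, Snhg1 had 0.39 in border-associated macrophages and -0.19 in microglia. In the same comparison Gas5 had 0.32 in monocytes by the marker gate alone and 0.27 in monocytes with a low microglial share, against -0.15 in microglia. Zfas1 had 0.45 in monocytes under both gates, against -0.15 in microglia.

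With APOE130-149 over sham, in cells with a low microglial share, Gas5 had 1.15 in neutrophils and 0.30 in monocytes, against -0.18 in microglia. With the control peptide over sham, Zfas1 had 0.79 in neutrophils and -0.14 in microglia. In that comparison Snhg6 had 2.30 in neutrophils, on 66 UMIs with the control peptide and 4 in sham, and -0.21 in microglia. S100a8 and S100a9 were highest in sham neutrophils, and their part in these neutrophil ratios was not tested.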

How the results depend on the processing

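Values are log2 ratios of the members' sum, and causes of the shifts were not tested. APOE130-149 over sham in microglia (-0.10) became -0.21 as a mean of per-cell CPM, -0.060 by TMM and -0.056 by median of ratios, and reversed to 0.024 when thinned to 2000 UMIs, where Gas5 reversed to 0.060. Control peptide over sham (0.02) became 0.061 with cells of 1000 genes or more and 5% mitochondrial UMIs or less, -0.077 as a mean over cells, 0.12 thinned, 0.11 by TMM and 0.12 by median of ratios. APOE130-149 over the control peptide ranged from -0.15 to -0.09 over 10 alternatives.

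Border-associated macrophages over microglia (0.18) became 0.31 thinned. Neutrophils over microglia (-0.14) became -0.10 with 3 and -0.25 with 5 gate markers, -0.017 without cells above 2 times the median UMIs, -0.037 as a mean over cells, -0.21 thinned, -0.041 by TMM, -0.029 by median of ratios, and -0.19 to -0.056 leaving out 1 library. With a low microglial share it was -1.13, and -0.78 without S100a8 and S100a9, an alternative chosen after seeing the data. Monocytes over microglia (0.17) became 0.32 scaled to UMIs neither ribosomal nor mitochondrial, 0.33 by TMM, 0.37 by median of ratios, and 0.088 to 0.30 leaving out 1 library. The highest over lowest bin of ribosomal protein share (1.09) became 0.94 scaled to all UMIs.

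At the lower fold tried, 2 members passed for the control peptide over sham (14.0% of all genes did, in either direction), 1 in border-associated macrophages with a low microglial share (28.1%), 1 in monocytes by the marker gate (44.8%) and 3 in monocytes with a low microglial share (56.1%), where 0 passed at 2-fold (23.4%) against 1 at 1.5-fold (40.7%). Of 210 alternatives for single members in microglia, 193 stayed within the counting interval, 16 moved out of it and 1 reversed. For the members' sum in microglia, 21 alternatives stayed within it, 8 moved out of it and 1 reversed. A change of sign was counted as reversed only where the main interval of the ratio left out 1. Other changes of sign are among those that stayed or moved. The sum with the control peptide over sham, for example, ran from -0.077 to 0.12 on the log2 scale. No paired analysis was possible because each group is 1 library. Depth limits the low-share classes most, where single members rest on as few as 4 UMIs.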
